A study of Rattus norvegicus with 9 samples.

Results

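Cytochrome P450 (CYP) families 1 to 4 were followed in rat liver through 43 of the 15923 probe sets of a one-colour oligonucleotide array. A probe set, the group of probes that reports 1 transcript, was a member when the platform annotation gave it exactly 1 symbol formed by Cyp, a family digit from 1 to 4 and a subfamily letter, whatever its values. These 43 probe sets stood for 40 genes. Whole liver total RNA of Rattus norvegicus was hybridized to 9 arrays in 3 groups of 3. By their titles, Sham-Sham was the control with a sham procedure in both steps, Sham-CLP paired a sham procedure with CLP, and Burn-CLP paired a burn with CLP. CLP is not spelled out in the labels, but in rodent injury work it usually means cecal ligation and puncture, a model of abdominal infection. Strain, sex, age, times and agents are not given in the sources used here. Nor do they say that each array was a different animal, and the p-values therefore describe the scatter of these samples, part or all of which could be technical.

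P450 enzymes are heme proteins, most of them in the endoplasmic reticulum, that insert oxygen into drugs, toxins, steroids and fatty acids with electrons passed on by P450 oxidoreductase. Families 1 to 3 hold the main drug-metabolizing enzymes of the liver, many of them induced through the receptors AHR, CAR and PXR, while family 4 holds hydroxylases of fatty acids and leukotrienes. In rat liver several members differ between the sexes under the control of growth hormone, and inflammation is widely known to lower many hepatic P450 transcripts.

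Signals are quantile normalized intensities with no unit. Values below 64.3, the 20th percentile of all values, were set to that floor, and probe sets above it on at least 3 arrays were tested. This kept 13535 probe sets, among them 42 members for 39 genes. The member left out was Cyp2b12, a gene known from skin glands, with a signal of 70.2 on Sham-CLP 2 and the floor on the other 8 arrays. Of the 42, 37 were above the floor on all 9 arrays, and 13 had a mean signal over 10000, as had 156 of all 13535. Levels of different probe sets are not compared, since probes differ in how strongly they bind. The median SD of log2 signal within a group was 0.291 for members and 0.308 for all tested probe sets. Sham-Sham 1 stood apart from the other arrays, with a mean correlation of 0.8897 over all probe sets against 0.9217 to 0.9485 for the others, so calls are also given without it. All 9 hepatocyte markers measured were above the floor on every array. In bulk liver, fewer cells of a type and less RNA per cell cannot be told apart.

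Differences between groups are log2 differences with their standard error (SE) from limma, fitted over all 9 arrays. They were called where the p-value, adjusted by the Benjamini-Hochberg method over the 13535 probe sets, was under 0.05. Both comparisons with Sham-Sham use the same 3 control arrays, and the 2 injured groups are compared with each other on the arrays that also enter those comparisons.

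Burn-CLP against Sham-Sham asked what a burn with CLP changed in the liver. In Burn-CLP, Cyp2t1 fell, and it was the single member that passed the test. The male-predominant Cyp2c11 was 10.8-fold lower and Cyp3a9 6.26-fold higher in the fitted means, but both missed the threshold, with adjusted p-values of 0.0538 and 0.0604. Cyp4f1 and Cyp4f6, both leukotriene and fatty acid hydroxylases, came next, each with an adjusted p of 0.0839. The hepatic enzymes Cyp2e1 and Cyp1a2, both with signals over 10000 on all arrays, differed by under 0.1 on the log2 scale.

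The count of 1 called member among 42 stood against 0.746% called among all 13535 probe sets, and the count of members called lower, also 1, against 0.421%. At an unadjusted p under 0.05 there were 14 members, or 33.3%, against 19.9% of all probe sets. Of these, 10 were lower and 4 higher in Burn-CLP, which is 23.8% and 9.52% of the members, while 9.85% and 10% of all probe sets lay on those sides. The groups did not overlap for 14 members, or 33.3%, against 21.5%. In 11 of them, or 26.2%, Burn-CLP was the lower group, against 10.5% of all probe sets, and in 3, or 7.14%, it was the higher, against 11%. The median difference was -0.17 over the members and 0.01 over all probe sets, and 30 of 42 members lay below 0, which is 71.4% against 49.1%. Without Sham-Sham 1 the count at an unadjusted p under 0.05 was 12 of 41 members tested, against 15.8% of all probe sets. Without Burn-CLP 2 it was 10 of 42, against 13.1%.

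**Figure D1:**
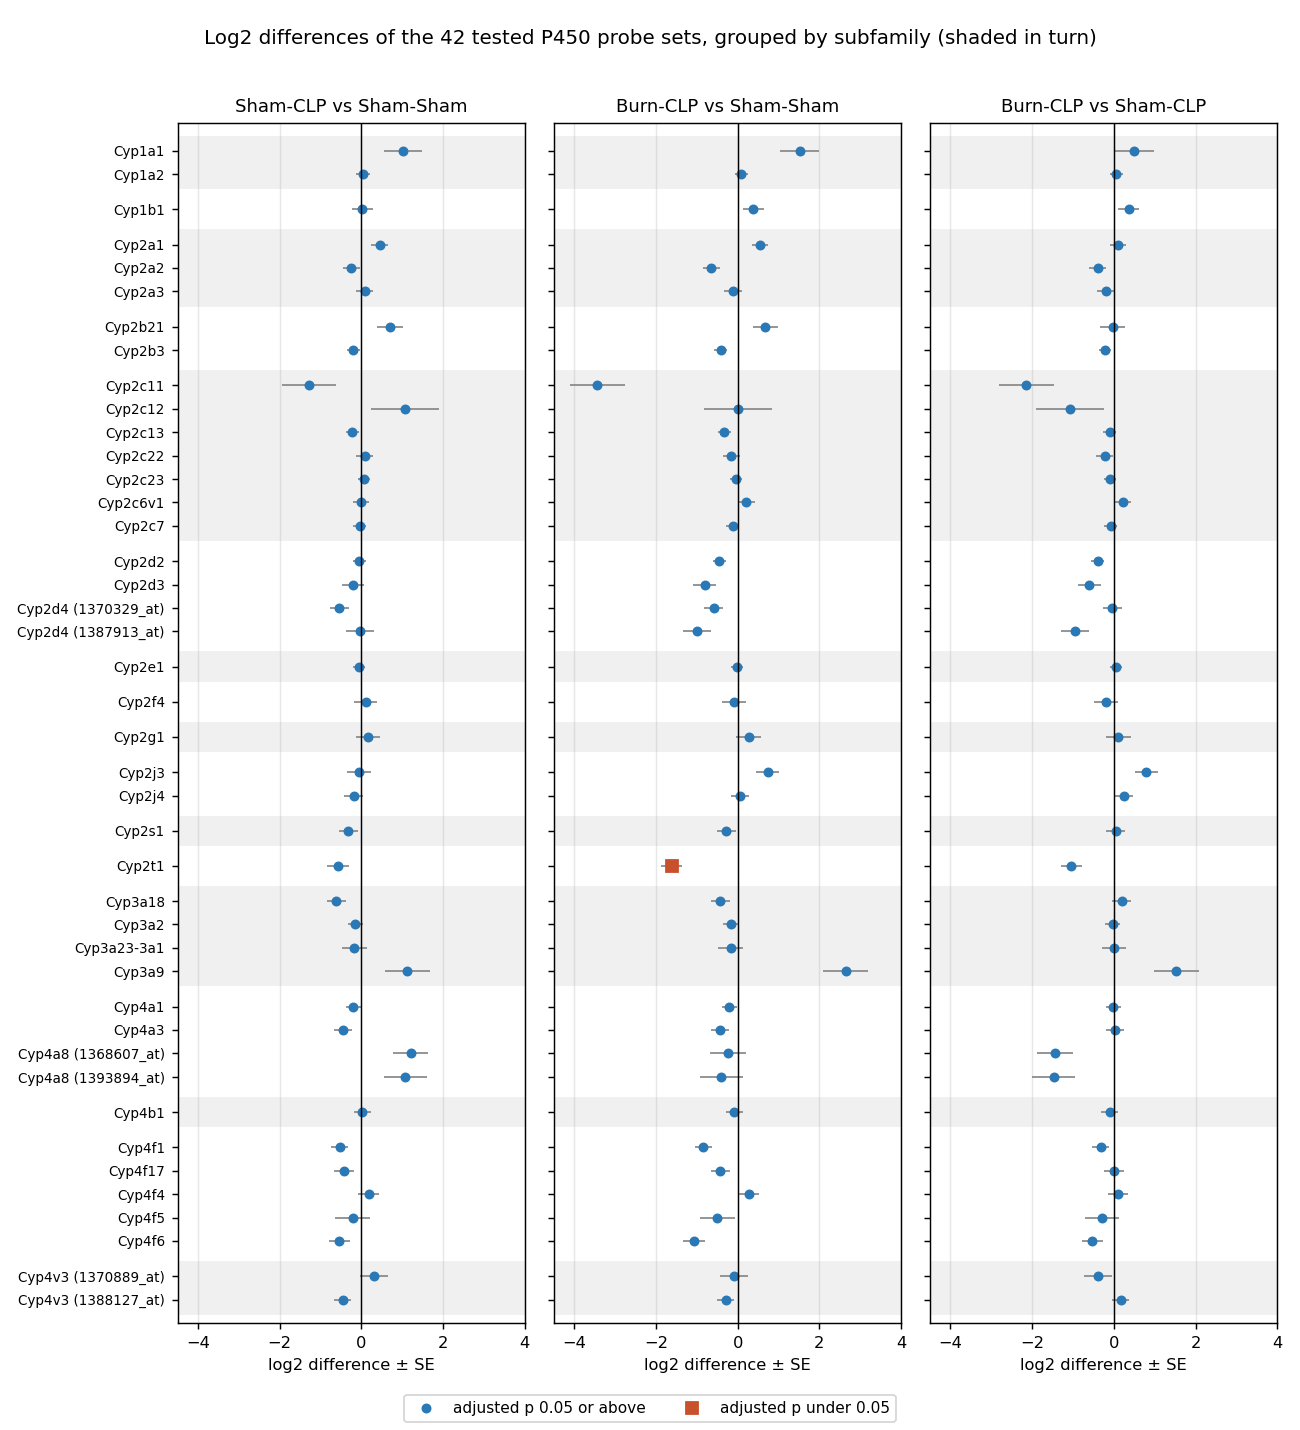
Log2 difference with its SE (x axis) of each of the 42 tested P450 probe sets (y axis, shaded in turn by subfamily) in the 3 comparisons; blue circles have an adjusted p of 0.05 or above and the red square one under 0.05. The red square is Cyp2t1 in Burn-CLP against Sham-Sham, at -1.61, and the points farthest from 0 are Cyp2c11 at -3.43 and Cyp3a9 at 2.65 in the same panel.

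Sham-CLP against Sham-Sham asked what CLP without a burn changed, and no member passed. The count of 0 called among 42 stood against 0.0591% of all probe sets in limma. At an unadjusted p under 0.05 there were 5 members, or 11.9%, against 11.7%. Differences over 1 in size included those of Cyp2c11 at -1.29, Cyp4a8 at 1.21, Cyp3a9 at 1.12 and Cyp2c12 at 1.08. Groups did not overlap for 10 members, or 23.8% against 16.7%, with 4 higher and 6 lower in Sham-CLP, which is 9.52% against 8.1% and 14.3% against 8.65% of all probe sets. The members' median was -0.06, with 25 of 42 below 0, or 59.5% against 49.4%. In the deposited scaling, without quantile normalization, 21 of 42 lay below 0.

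Burn-CLP against Sham-CLP asked what the burn added to CLP, and again 0 of 42 members passed, against 0.0148% of all probe sets in limma. At an unadjusted p under 0.05 there were 8 members, or 19%, against 9.09%. Without Burn-CLP 2 the count was 4 of 42, against 5.48% of all probe sets. The 8 include both probe sets of Cyp4a8. With 1 probe set per gene and all arrays, 2 of 39 were higher and 4 lower at that p. The groups did not overlap for 8 members, or 19% against 18.8%. Cyp3a9 and Cyp2j3 were the 2 with Burn-CLP above Sham-CLP, and Cyp2t1, Cyp2d2, Cyp2d3, Cyp2b3, Cyp4f6 and the second probe set of Cyp2d4 the 6 with Burn-CLP below it. The latter make 14.3% of the members, against 9.22% of all probe sets, and the former 4.76% against 9.61%. In the deposited scaling the median of all probe sets was itself 0.114 in this comparison, that of the members was -0.163, and 31 of 42 members lay below 0. After quantile normalization 26 of 42 did, or 61.9% against 47.5%.

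**Figure D2:**
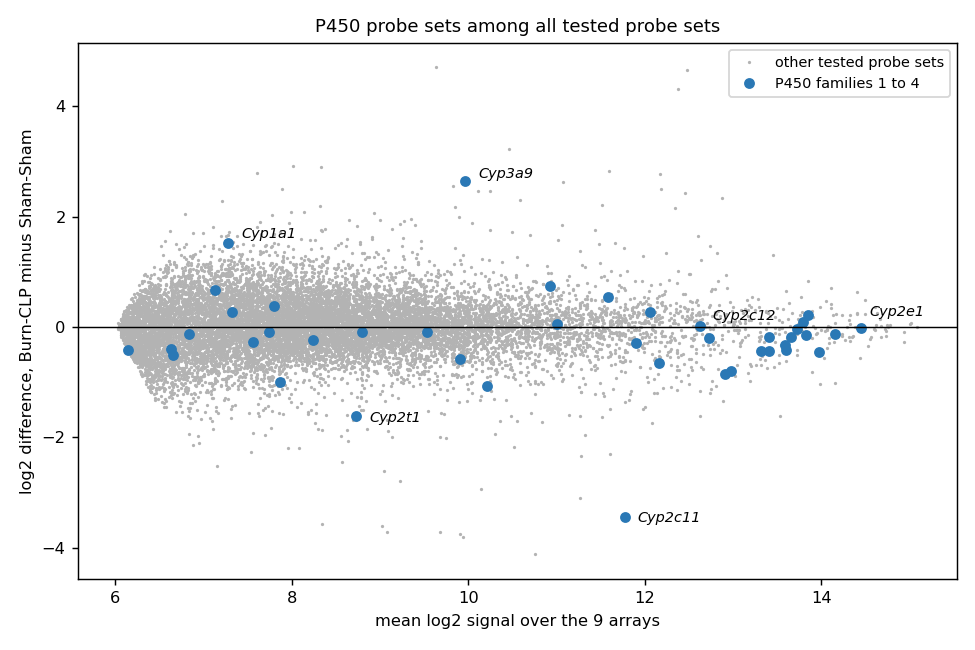
Log2 difference of Burn-CLP minus Sham-Sham (y axis) against the mean log2 signal over the 9 arrays (x axis) for all 13535 tested probe sets (grey) and the 42 P450 probe sets (blue). Most of the blue points on the right lie near or a little below 0, while Cyp2c11 at -3.43 and Cyp3a9 at 2.65 lie far from it.

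Cyp2t1 is the only CYP2T gene of the array and is described first because it passed the test. Its upstream sequence in RefSeq, assembly GRCr8, is chr1:91575260-91575509 on the plus strand, the 250 bases before the annotated start. It is printed 5′ to 3′, with capitals at the matches to the motifs named further on, here the AHR core GCGTG at bases -151 to -147 and the STAT motif TTCNNNGAA at bases -77 to -69 before the start.
Cyp2t1: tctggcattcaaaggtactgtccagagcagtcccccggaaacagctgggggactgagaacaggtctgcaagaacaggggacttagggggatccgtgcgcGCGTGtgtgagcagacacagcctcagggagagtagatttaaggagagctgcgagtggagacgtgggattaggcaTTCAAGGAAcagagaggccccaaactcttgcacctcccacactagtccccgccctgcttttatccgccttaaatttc

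The Cyp2t1 signal was 717, 600 and 802 on Sham-Sham 1 to 3, 435, 391 and 618 in Sham-CLP, and 255, 164 and 289 in Burn-CLP. All Burn-CLP arrays lay below all other arrays, whereas Sham-CLP 3 lay above Sham-Sham 2, so the first 2 groups overlapped. Mean signals were 706 ± 101, 481 ± 120 and 236 ± 64.8 (SD, n = 3 arrays each). Cyp2t1 fell by 1.61 ± 0.26 on the log2 scale from Sham-Sham to Burn-CLP, a 3.06-fold difference, with an adjusted p of 0.0351 in limma. Burn-CLP differed from Sham-CLP by -1.04 ± 0.26 (adjusted p 0.345) and Sham-CLP from Sham-Sham by -0.57 ± 0.26 (adjusted p 0.433), and neither passed. The call was lost without Burn-CLP 2 (adjusted p 0.105), Burn-CLP 1 (0.0915), Sham-Sham 1 (0.0887), Sham-Sham 2 (0.0674), Sham-CLP 1 (0.0621) or Sham-CLP 2 (0.0584). It was also lost with a lower floor, without the filter on dim probe sets and when only the 2 groups compared were fitted, while the difference itself stayed between -1.79 and -1.37. It was kept without Sham-Sham 3 (0.0315), Sham-CLP 3 (0.0374) or Burn-CLP 3 (0.0279).

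By RefSeq position the gene lies at the end of a row of 10 member genes. The others are Cyp2s1, Cyp2b3, Cyp2b21, Cyp2b12, Cyp2g1, Cyp2a3, Cyp2a1, Cyp2a2 and Cyp2f4. A row here joins members whose starts lie at most 1 Mb from the next member, and other genes between them were not considered. The 9 tested genes of this row had a median difference of -0.12 between Burn-CLP and Sham-Sham, and they spanned 0.68 for Cyp2b21 to -1.61 for Cyp2t1. The next member in the row, Cyp2f4, a naphthalene-oxidizing enzyme best known from lung, had -0.09 ± 0.29. Values of the row thus lay on both sides of 0.

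**Figure D3:**
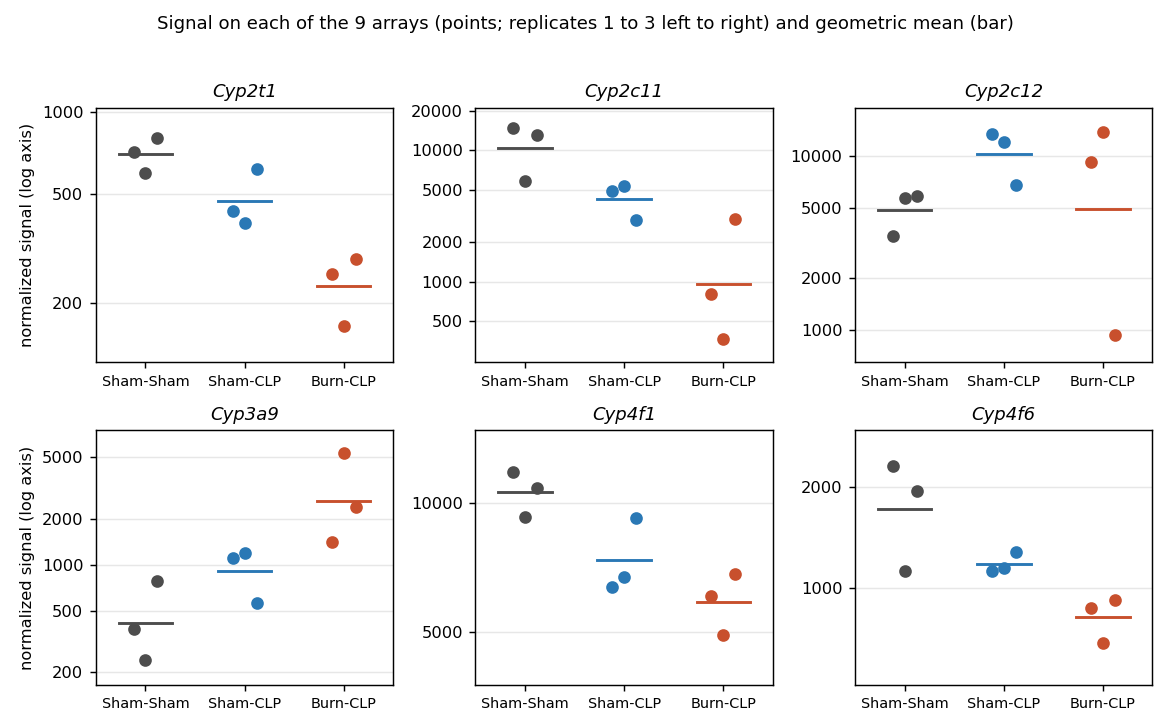
Normalized signal (y axis, log scale) of 6 P450 genes on each of the 9 arrays (points, replicates 1 to 3 from left to right in each group), with the geometric mean as a bar. Burn-CLP lies below all other arrays for Cyp2t1 and Cyp4f6 and above all others for Cyp3a9, while Cyp2c12 runs from 937 to 13805 within Burn-CLP.

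In CYP2A and CYP2B, the steroid-hydroxylating Cyp2a1 and Cyp2a2 lay on opposite sides of 0. Cyp2a1, predominant in female rats, read 2555, 2402 and 2358 in Sham-Sham, 4088, 3352 and 2662 in Sham-CLP and 4098, 2961 and 3712 in Burn-CLP. Every injured array lay above every Sham-Sham array. The differences from Sham-Sham were 0.44 ± 0.20 in Sham-CLP (adjusted p 0.433) and 0.55 ± 0.20 in Burn-CLP (adjusted p 0.193). Cyp2a2, predominant in males, read 6730, 5073 and 5198 in Sham-Sham, 5921, 4556 and 3908 in Sham-CLP and 3988, 3201 and 3624 in Burn-CLP. Here Burn-CLP lay below all Sham-Sham arrays, at -0.65 ± 0.21 (adjusted p 0.151), and overlapped Sham-CLP. Cyp2a3, known from nasal tissue and lung, had -0.12 ± 0.22.

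Cyp2b3, a constitutive liver enzyme that phenobarbital is known not to induce, read 14187, 13716 and 15018 in Sham-Sham, 11222, 12217 and 14099 in Sham-CLP and 10676, 10439 and 11024 in Burn-CLP. The Burn-CLP arrays were the 3 lowest of the 9. Their difference from Sham-Sham was -0.42 ± 0.16 (1.33-fold, adjusted p 0.195) and that from Sham-CLP -0.22 ± 0.16 (adjusted p 0.731). Cyp2b21 was at the floor on Sham-Sham 1 and read 114 and 143 on the other Sham-Sham arrays. Its Sham-CLP signals of 144, 167 and 189 all lay above these, a difference of 0.70 ± 0.31 (adjusted p 0.425) that understates the change where the floor was reached. Burn-CLP, at 224, 132 and 144, overlapped Sham-Sham, and the difference was 0.68 ± 0.31 (adjusted p 0.264).

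The remaining genes of the row are known mostly from other tissues, and their groups overlapped. Cyp2g1, the olfactory form, had 0.27 ± 0.30, and Cyp2s1, an epithelial form, had -0.27 ± 0.23 in Burn-CLP against Sham-Sham.

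CYP2C held the largest difference and the largest spread among the members. Cyp2c11 is the growth hormone-dependent testosterone hydroxylase of male rats, and Cyp2c12 is its female-specific counterpart, a hydroxylase of steroid sulfates. Their upstream sequences are shown because these genes differed most from array to array, with that of Cyp2c13, another male-predominant member, because its first 250 bases upstream align to those of Cyp2c12 at 63% identity. Capitals mark TATAAA in all 3 and, in Cyp2c12, the C/EBP motif TTGCNNAA at bases -87 to -80. The stretches are chr1:246174966-246175215 on the plus strand for Cyp2c11, and on the minus strand chr1:248677035-248677284 for Cyp2c12 and chr1:248787189-248787438 for Cyp2c13, all in GRCr8.
Cyp2c11: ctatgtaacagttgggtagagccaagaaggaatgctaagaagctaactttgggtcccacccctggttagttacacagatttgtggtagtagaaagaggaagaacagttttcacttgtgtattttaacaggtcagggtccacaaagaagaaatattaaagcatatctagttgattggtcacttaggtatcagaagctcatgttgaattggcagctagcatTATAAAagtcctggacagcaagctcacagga
Cyp2c12: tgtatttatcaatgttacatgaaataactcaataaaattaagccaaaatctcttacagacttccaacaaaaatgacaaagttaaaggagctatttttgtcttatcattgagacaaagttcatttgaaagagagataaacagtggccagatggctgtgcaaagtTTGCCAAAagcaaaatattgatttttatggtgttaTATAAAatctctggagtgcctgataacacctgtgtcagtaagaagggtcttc
Cyp2c13: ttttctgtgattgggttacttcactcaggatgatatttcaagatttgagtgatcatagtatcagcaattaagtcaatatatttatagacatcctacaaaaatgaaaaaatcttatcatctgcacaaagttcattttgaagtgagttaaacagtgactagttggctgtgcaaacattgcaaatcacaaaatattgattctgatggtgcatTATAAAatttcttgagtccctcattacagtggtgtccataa

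Cyp2c11 read 14641, 5874 and 13050 in Sham-Sham, 4857, 5364 and 2957 in Sham-CLP, and 811, 367 and 2990 in Burn-CLP. Every Sham-Sham array lay above every injured array, and the injured groups overlapped only because Burn-CLP 3 lay just above Sham-CLP 3. Means were 11188 ± 4671, 4393 ± 1269 and 1390 ± 1404 (SD, n = 3 each). The difference from Sham-Sham was -3.43 ± 0.67 in Burn-CLP, with a 95% interval from -4.93 to -1.94 and an adjusted p of 0.0538 in limma, and -1.29 ± 0.67 in Sham-CLP (adjusted p 0.477). Burn-CLP differed from Sham-CLP by -2.14 ± 0.67 (adjusted p 0.399). None of the 3 passed. Without Burn-CLP 3, the array with the highest signal of its group, the difference from Sham-Sham became -4.26 and passed, with an adjusted p of 0.0135. Without Burn-CLP 2, the lowest, it was -2.74 with an adjusted p of 0.161, and without Sham-Sham 1 it was -3.20 with an adjusted p of 0.124.

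Cyp2c12 read 3458, 5700 and 5887 in Sham-Sham, 13402, 12013 and 6812 in Sham-CLP, and 9246, 13805 and 937 in Burn-CLP. All Sham-CLP arrays lay above all Sham-Sham arrays, whereas Burn-CLP held both the highest and the lowest signal of the 9. The difference of Sham-CLP from Sham-Sham was 1.08 ± 0.83 (adjusted p 0.614) and that of Burn-CLP 0.01 ± 0.83, with a 95% interval from -1.85 to 1.88. The SD of Cyp2c12 within groups, 1.27 on the log2 scale, ranked at the 99.9th percentile of all tested probe sets, that of Cyp2c11, 1.01, at the 99.5th, and that of Cyp3a9, 0.824, at the 98.3rd. On Burn-CLP 3, where Cyp2c11 was highest within its group, Cyp2c12 was lowest, and on Burn-CLP 2 the order was the reverse.

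The other 5 CYP2C members differed by less than 0.4 in size in every comparison. Cyp2c7, a female-predominant form that oxidizes retinoic acid, read 18182, 19645 and 19319 in Sham-Sham and 18525, 15701 and 18388 in Burn-CLP. These overlapped, and the difference was -0.12 ± 0.15, with an interval from -0.47 to 0.22. Burn-CLP minus Sham-Sham was -0.32 ± 0.17 for Cyp2c13, -0.15 ± 0.21 for Cyp2c22, -0.03 ± 0.14 for Cyp2c23, an arachidonic acid epoxygenase, and 0.21 ± 0.20 for Cyp2c6v1. Their 3 Burn-CLP signals overlapped those of Sham-Sham, except for Cyp2c13. The CYP2C median was -0.12 in that comparison, and in Sham-CLP against Sham-Sham it was -0.01, or 0.24 in the deposited scaling.

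CYP2D, the subfamily of debrisoquine hydroxylases, had all 4 tested probe sets below 0 in Burn-CLP against Sham-Sham, from -0.99 to -0.45, with a median of -0.69. None was called, and all 4 had an unadjusted p under 0.05, as had 9.85% of all probe sets on the lower side. Cyp2d2 read 15918, 18967 and 19460 in Sham-Sham, 16960, 18017 and 17245 in Sham-CLP and 14331, 12013 and 13322 in Burn-CLP. The Burn-CLP arrays were the 3 lowest. The differences were -0.45 ± 0.16 from Sham-Sham (1.37-fold, adjusted p 0.178) and -0.40 ± 0.16 from Sham-CLP (adjusted p 0.498), while Sham-CLP differed from Sham-Sham by -0.05 ± 0.16.

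Cyp2d3 read 11438, 9985 and 9335 in Sham-Sham, 8242, 8653 and 9740 in Sham-CLP and 7738, 3566 and 7254 in Burn-CLP. Again the 3 Burn-CLP arrays were the lowest, with Burn-CLP 2 well below the other 2. The difference from Sham-Sham was -0.80 ± 0.28 (adjusted p 0.171), and without Burn-CLP 2 it was -0.45. Cyp2d4, a form also expressed in brain, has 2 probe sets that differed in where the step between groups lay. The first read 1596, 1167 and 1033 in Sham-Sham, 958, 900 and 718 in Sham-CLP and 1039, 785 and 700 in Burn-CLP. It was lower in all Sham-CLP arrays than in Sham-Sham, at -0.55 ± 0.23 (adjusted p 0.409), and Burn-CLP minus Sham-CLP was -0.04 ± 0.23. The second read 413, 282 and 222, then 290, 263 and 314, then 199, 85.2 and 194 in the same order. Here Sham-CLP overlapped Sham-Sham, at -0.04 ± 0.34, and Burn-CLP lay below both groups, at -0.99 ± 0.34 from Sham-Sham (adjusted p 0.169) and -0.95 ± 0.34 from Sham-CLP (adjusted p 0.464).

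Cyp2e1, the ethanol- and acetone-oxidizing enzyme, varied least among the groups. It read 22213, 23816 and 22433 in Sham-Sham, 21871, 22877 and 20703 in Sham-CLP, and 22877, 21364 and 23085 in Burn-CLP. The 3 groups overlapped, and Burn-CLP minus Sham-Sham was -0.02 ± 0.15, with a 95% interval from -0.35 to 0.30. Cyp1a2 had an interval from -0.27 to 0.46 in the same comparison. Such intervals lay within 1 log2 unit of 0 for 25 of the 42 members, or 59.5%, against 61.5% of all probe sets. The highest deposited signals of the arrays were 29511 to 42575, and whether the brightest probe sets were near saturation was not tested.

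CYP2J holds arachidonic acid epoxygenases. Cyp2j3 read 1737, 1183 and 2243 in Sham-Sham, 1420, 1557 and 1832 in Sham-CLP and 2834, 3749 and 2003 in Burn-CLP. Burn-CLP lay above all Sham-CLP arrays and overlapped Sham-Sham. The differences were 0.80 ± 0.29 from Sham-CLP (1.74-fold, adjusted p 0.464) and 0.74 ± 0.29 from Sham-Sham (adjusted p 0.209). Cyp2j4, the other member of its row, had 0.06 ± 0.23 against Sham-Sham.

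In CYP1, Cyp1a1, the AHR-induced oxidase of polycyclic aromatic hydrocarbons, was at the floor on Sham-Sham 1 and Sham-Sham 2 and read 155 on Sham-Sham 3. It read 232, 236 and 97.6 in Sham-CLP and 260, 373 and 157 in Burn-CLP. Burn-CLP did not overlap Sham-Sham, but only by the gap between 155 and 157. The difference was 1.52 ± 0.47 (adjusted p 0.143), which understates the change where the floor was reached, and 1.02 ± 0.47 for Sham-CLP (adjusted p 0.438). Without Sham-Sham 3, the only Sham-Sham array above the floor, the Burn-CLP difference was 1.95 and passed, with an adjusted p of 0.0477. Cyp1a2, the constitutive hepatic form that oxidizes caffeine, read 13562 to 13885 in Sham-Sham and 12615 to 16400 in Burn-CLP, at 0.09 ± 0.16. Cyp1b1, an estrogen hydroxylase found mostly outside the liver, had 0.38 ± 0.25.

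CYP3A, the subfamily of steroid hydroxylases induced through PXR, was split. Cyp3a9 lay above 0 in Burn-CLP, while Cyp3a2, Cyp3a18 and Cyp3a23-3a1 had -0.17 ± 0.18, -0.43 ± 0.24 and -0.17 ± 0.30 against Sham-Sham. The upstream sequence of Cyp3a9 is shown with those of Cyp3a2 and Cyp3a23-3a1 so that the member that stood apart can be read beside its relatives. Cyp3a2 and Cyp3a23-3a1 align at 79.2% identity over these bases, and Cyp3a9 aligns to Cyp3a23-3a1 at 59.3%. Capitals mark the HNF4 motif CAAAGTCCA in both relatives and, in Cyp3a2, TTGCNNAA and the FOXA motif TGTTTAC, and no searched motif matched in Cyp3a9. The GRCr8 positions, all on the minus strand, are chr12:21960161-21960410 for Cyp3a9, chr12:14343858-14344107 for Cyp3a2 and chr12:14398804-14399053 for Cyp3a23-3a1. By RefSeq position, Cyp3a18, Cyp3a2 and Cyp3a23-3a1 form 1 row of members, and Cyp3a9 lies outside it.
Cyp3a9: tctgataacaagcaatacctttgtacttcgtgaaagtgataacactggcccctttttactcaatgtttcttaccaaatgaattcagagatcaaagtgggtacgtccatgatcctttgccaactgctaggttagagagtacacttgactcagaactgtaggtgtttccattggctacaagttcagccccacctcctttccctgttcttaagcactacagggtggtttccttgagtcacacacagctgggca
Cyp3a2: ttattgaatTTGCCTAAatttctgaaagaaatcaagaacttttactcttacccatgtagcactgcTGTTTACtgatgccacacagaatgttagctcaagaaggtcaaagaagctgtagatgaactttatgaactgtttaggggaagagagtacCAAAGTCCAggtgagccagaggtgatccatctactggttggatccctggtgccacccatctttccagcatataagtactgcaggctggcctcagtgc
Cyp3a23-3a1: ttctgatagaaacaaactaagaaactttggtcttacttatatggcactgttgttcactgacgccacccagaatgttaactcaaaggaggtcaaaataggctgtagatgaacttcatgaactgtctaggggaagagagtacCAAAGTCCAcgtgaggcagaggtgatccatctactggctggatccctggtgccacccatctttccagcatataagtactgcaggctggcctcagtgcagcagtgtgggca

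Cyp3a9 read 383, 242 and 785 in Sham-Sham, 1104, 1198 and 565 in Sham-CLP, and 1400, 5354 and 2374 in Burn-CLP. Every Burn-CLP array lay above every other array, and Sham-CLP 3 fell within the Sham-Sham range. Means were 470 ± 282, 956 ± 342 and 3043 ± 2060 (SD, n = 3 each). The differences were 2.65 ± 0.55 for Burn-CLP from Sham-Sham (adjusted p 0.0604), 1.52 ± 0.55 for Burn-CLP from Sham-CLP (adjusted p 0.464) and 1.12 ± 0.55 for Sham-CLP from Sham-Sham (adjusted p 0.46), so none passed in limma. Without Sham-Sham 3, the highest of the controls, the first of these was 3.09 and passed, with an adjusted p of 0.0247. Without Burn-CLP 2, the array with the highest signal, it was 2.13, with an adjusted p of 0.191. Without Sham-Sham 1 it was 2.61, with an adjusted p of 0.129.

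Cyp3a18, predominant in males, read 16497, 11024 and 14701 in Sham-Sham, 10574, 10111 and 6968 in Sham-CLP and 10288, 8653 and 12393 in Burn-CLP. All Sham-CLP arrays lay below all Sham-Sham arrays, at -0.61 ± 0.24 (1.53-fold, adjusted p 0.389), and Burn-CLP overlapped both groups. Cyp3a2 ran from 12217 to 14961 in Sham-Sham and from 10085 to 14187 in Burn-CLP, and these overlapped too.

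**Figure D4:**
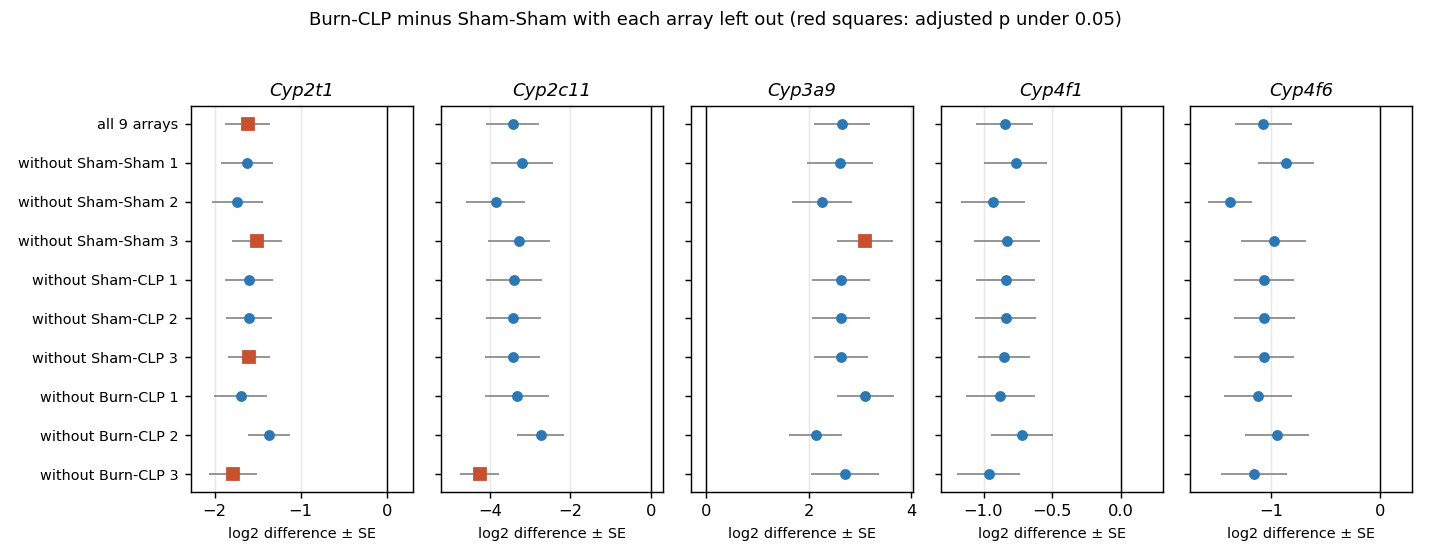
Log2 difference of Burn-CLP minus Sham-Sham with its SE (x axis) for 5 P450 genes when all 9 arrays were used and when each array was left out (y axis); red squares have an adjusted p under 0.05. Every point of a gene keeps its side of 0, which was largely fixed beforehand because the 2 groups do not overlap for these genes. Whether a gene passes depends on the array left out, with Cyp2c11 passing without Burn-CLP 3 and Cyp3a9 without Sham-Sham 3.

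In CYP4A, hydroxylases of fatty acids induced through PPAR-alpha, Cyp4a8 was read by 2 probe sets. Its first probe set read 224, 218 and 289 in Sham-Sham, 753, 800 and 289 in Sham-CLP and 120, 234 and 308 in Burn-CLP. Sham-CLP 1 and 2 were the highest of the 9 arrays, and Sham-CLP 3 lay barely above the highest Sham-Sham array. The difference of Sham-CLP from Sham-Sham was 1.21 ± 0.43 (2.31-fold, adjusted p 0.361) and that of Burn-CLP from Sham-CLP -1.45 ± 0.43 (adjusted p 0.383). The second probe set, with 84.9, the floor and 112 in Sham-Sham, 364, 244 and the floor in Sham-CLP and the floor on all 3 Burn-CLP arrays, had 1.07 ± 0.53 (adjusted p 0.46) and -1.48 ± 0.53 (adjusted p 0.464). In both probe sets Sham-CLP 1 and 2 stood above the other arrays and Sham-CLP 3 did not.

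Cyp4a3 read 11197, 14187 and 12316 in Sham-Sham and 9985, 9376 and 8119 in Sham-CLP, which did not overlap, and 12178, 9614 and 6907 in Burn-CLP, which overlapped both. The differences from Sham-Sham were -0.45 ± 0.22 (adjusted p 0.461) and -0.42 ± 0.22 (adjusted p 0.321). Cyp4a1 had -0.19 ± 0.19 and -0.20 ± 0.19. Since Cyp4a8 counts with 2 probe sets, the CYP4A median in Sham-CLP against Sham-Sham was 0.44 over 4 probe sets but -0.19 with 1 per gene. Cyp4b1, best known from lung, had -0.08 ± 0.20 in Burn-CLP against Sham-Sham.

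CYP4F, which hydroxylates leukotrienes and long fatty acids, had 4 of its 5 members below 0 in both comparisons with Sham-Sham. Cyp4f17, 1 of these 4, was above the floor only in Sham-Sham, so its side of 0 was fixed by the filter. The medians were -0.42 in Sham-CLP, which is the value of Cyp4f17 itself, and -0.50 in Burn-CLP. Without Sham-Sham 1 the former was -0.04, over a set that no longer held Cyp4f17. Cyp4f1 read 11800, 9298 and 10852 in Sham-Sham, 6396, 6730 and 9246 in Sham-CLP and 6081, 4927 and 6831 in Burn-CLP. Every injured array lay below every Sham-Sham array, though Sham-CLP 3 by little. The differences were -0.53 ± 0.21 in Sham-CLP (adjusted p 0.394) and -0.85 ± 0.21 in Burn-CLP (1.8-fold, adjusted p 0.0839).

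Cyp4f6 read 2319, 1131 and 1946 in Sham-Sham, 1128, 1147 and 1281 in Sham-CLP and 875, 686 and 924 in Burn-CLP. The 3 Burn-CLP arrays were the lowest of the 9. They differed from Sham-Sham by -1.07 ± 0.26 (2.1-fold, adjusted p 0.0839) and from Sham-CLP by -0.53 ± 0.26 (adjusted p 0.588). By RefSeq position, Cyp4f1 and Cyp4f6 follow each other in a row of 5 member genes. In the same row Cyp4f4 had 0.27 ± 0.25 in Burn-CLP against Sham-Sham and Cyp4f5 -0.50 ± 0.42. Cyp4f17 read 129, 65.3 and 76.3 in Sham-Sham and was at the floor on all 6 injured arrays. Its 1.34-fold difference from the injured groups is therefore a lower bound, and it did not pass the test in either comparison (adjusted p 0.507 and 0.346). Since it was tested only through its Sham-Sham arrays, it had to lie below 0 without overlap, and it is counted so in both comparisons.

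Cyp4v3, the rat counterpart of a human fatty acid hydroxylase of the eye, has 2 probe sets that differed in sign in Sham-CLP. The first read 5052, 3886 and 4755 in Sham-Sham, 3717, 3924 and 2471 in Sham-CLP and 3762, 3463 and 3903 in Burn-CLP. Sham-CLP 2 and Burn-CLP 3 reached into the Sham-Sham range. Its difference in Sham-CLP was -0.46 ± 0.21 (adjusted p 0.438), and that of the second was 0.32 ± 0.34 (adjusted p 0.726).

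Extreme values were not spread evenly over the arrays. Burn-CLP 2 was the lowest of the 9 for 14 of the 42 members, among them Cyp2t1, Cyp2c11, Cyp2d2, Cyp2d3, Cyp4f1 and Cyp4f6, and the highest for 5, among them Cyp1a1, Cyp2c12, Cyp2j3 and Cyp3a9. Sham-Sham 1 was the highest for 18 members. The mean correlation of Burn-CLP 2 with the other arrays was 0.9217 over all probe sets and 0.9304 over the members, the lowest of the 9 over the members. Without Burn-CLP 2, the Burn-CLP group differed from Sham-Sham by -1.37 for Cyp2t1, -0.72 for Cyp4f1 and -0.94 for Cyp4f6.

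Set side by side, the 12 tested probe sets of family 4 had a median of -0.35 in Burn-CLP against Sham-Sham. Of these, 11 of 12 lay below 0, among them Cyp4f17, whose side was fixed by the filter. The 23 of family 2 had -0.12 with 16 below 0. The 4 of family 3 had -0.17, and the 3 of family 1 had 0.38. With 1 array left out at a time, family 2 ran from -0.25 to -0.04, family 4 from -0.37 to -0.20 and family 1 from 0.19 to 0.62. Among subfamilies with 3 or more probe sets, the medians were -0.69 for CYP2D, -0.50 for CYP4F, -0.32 for CYP4A, -0.17 for CYP3A, and -0.12 for both CYP2C and CYP2A. Single arrays moved several of them. CYP4F was at -0.77 without Sham-Sham 2 and -0.84 without Sham-Sham 3, below the -0.73 and -0.79 of CYP2D. With a Sham-Sham array left out, Cyp4f17 was above the floor on too few arrays to be tested. The CYP4F and family 4 medians then leave it out, so their shift mixes a changed set with the array left out. The order of these subfamilies is not settled. CYP4A was at -0.16 without Sham-Sham 3. CYP3A was at -0.07 without Sham-Sham 1, -0.35 without Burn-CLP 1 and -0.02 without Burn-CLP 2. CYP2C was at -0.25 when Burn-CLP 1 was left out, at -0.23 when Burn-CLP 2 was, and at -0.02 when Burn-CLP 3 was. CYP2A was at 0.02 without Sham-Sham 1, -0.25 without Sham-Sham 2 or Burn-CLP 2 and 0.06 without Burn-CLP 3. The medians were not tested against each other.

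Read by known regulation, the 5 male-predominant members, Cyp2c11, Cyp2c13, Cyp2a2, Cyp3a2 and Cyp3a18, all lay below 0 in Sham-CLP and in Burn-CLP against Sham-Sham. Their medians were -0.25 and -0.43, and in Burn-CLP 3 of the 5 lay wholly below Sham-Sham, as did 10.5% of all probe sets. The 3 members listed as female-predominant, Cyp2c12, Cyp2c7 and Cyp2a1, had medians of 0.44 and 0.01. Neither list need be complete, and other members may belong to them. The members induced through CAR or PXR had a median of -0.17 in Burn-CLP over 5 probe sets. These were Cyp2c6v1 and the 4 of CYP3A, so the set largely repeats that subfamily, and it lacks Cyp2b1 and Cyp2b2. The 4 epoxygenases of arachidonic acid had a median of 0.01, spanning -3.43 for Cyp2c11 to 0.74 for Cyp2j3. None of these sets held a called member, and the sex of the rats is not given.

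For 33 of the 40 member genes RefSeq gave 1 upstream sequence of 250 bases in GRCr8, and 7 had none in the table used. The motifs were searched on both strands, except TATAAA, which was read on the strand of the gene. TATAAA matched in 27.3% of the member sequences and in 8.06% of all 33469 sequences of that length, TTGCNNAA in 33.3% and 9.22%, and TGTTTAC in 15.2% and 3.21%. CAAAGTCCA matched in 6.06% and 0.338%, TTCNNNGAA in 9.09% and 7.67%, GCGTG in 15.2% and 25.9%, and the NF-kB motif, GGGA and TTCC with any 2 bases between, in 0% and 1.08%. The 5 members with GCGTG were Cyp2t1, Cyp1b1, Cyp4f1, Cyp4f5 and Cyp4f6, and those with TTCNNNGAA were Cyp2t1, Cyp2j4 and Cyp4a8. A match describes the letters of this window and was not tested as a binding site.

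Genes that serve the P450 system were read from lists that hold no member. Of 6 electron transfer partners limma called none, with medians of 0.46 in Sham-CLP and -0.06 in Burn-CLP against Sham-Sham, where 3 had an unadjusted p under 0.05. In that comparison 19.9% of all probe sets had such a p, which is the share to read beside counts at an unadjusted p. Counts of called genes are read beside the 0.746% of all probe sets that were called. Por, the oxidoreductase that supplies most hepatic P450 enzymes, had 1.43 ± 0.47 in Burn-CLP (adjusted p 0.154), and Pgrmc2, a heme-binding membrane protein, had -0.97 ± 0.23 (adjusted p 0.0772). Cyb5r3, the reductase of cytochrome b5, had 0.90 ± 0.17 in Sham-CLP against Sham-Sham (adjusted p 0.154) and -1.12 ± 0.17 in Burn-CLP against Sham-CLP (adjusted p 0.131). In heme synthesis and breakdown, 1 of 8 genes was called, and it fell in Burn-CLP against Sham-Sham, where 2 of the 8 had an unadjusted p under 0.05. The called gene was Alad, an early enzyme of heme synthesis, which fell by 1.56 ± 0.26 on the log2 scale, with an adjusted p of 0.0363. The median of that list was 0.04.

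Of 16 receptors and factors known to drive hepatic P450 genes none was called in any comparison, and the median was 0.38 in Burn-CLP against Sham-Sham, with 13 of 16 above 0 and 3 at an unadjusted p under 0.05. Dbp, a factor of the circadian clock, had 1.00 ± 0.29 (adjusted p 0.127), and Cebpa, a factor of mature hepatocytes, had -0.85 ± 0.19 in Burn-CLP against Sham-CLP (adjusted p 0.293). The 9 other oxidation and epoxide enzymes all lay below 0 in Burn-CLP against Sham-Sham, with a median of -0.86, and none was called while 6 had an unadjusted p under 0.05, against 9.85% of all probe sets on the lower side. Fmo1, a flavin monooxygenase, had -1.94 ± 0.38 (adjusted p 0.0552) and Aldh2, which oxidizes acetaldehyde, -0.86 ± 0.18 (adjusted p 0.06). The 11 P450 genes of other families, which make sterols, bile acids and steroids, had a median of 0.35 in that comparison and 0.27 in Sham-CLP, where all 11 lay above 0, none was called and 4 had an unadjusted p under 0.05, against 11.7% of all probe sets. Cyp51, a sterol demethylase of cholesterol synthesis, had the smallest p there, with 1.15 ± 0.27 (adjusted p 0.249).

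Of 20 markers of macrophages, neutrophils and stellate cells or fibroblasts, 2 were called in Burn-CLP against Sham-Sham. In that comparison 0.746% of all probe sets were called, 19.9% had an unadjusted p under 0.05 and 49.1% lay below 0. The part of such cells in the P450 values was not tested. Taking first Sham-Sham, then Sham-CLP and last Burn-CLP, 7 macrophage markers summed to 8426 to 9296, 9163 to 10890 and 9801 to 14270, with all 7 above 0 in Burn-CLP against Sham-Sham, none called and 2 at an unadjusted p under 0.05. The 5 neutrophil markers summed to 618.3 to 824.1, 681.7 to 994.3 and 868.9 to 1818, and 1 of them, S100a9, rose by 2.80 ± 0.40 (adjusted p 0.0239). Of 8 markers of stellate cells and fibroblasts, summed at 5588 to 6374, 3918 to 5821 and 4181 to 5623, 1 rose, Dcn, by 1.48 ± 0.21 (adjusted p 0.0239), while 6 of the 8 lay below 0, with a median of -0.22. The 9 hepatocyte markers summed to 203900 to 214900, 211100 to 217400 and 193100 to 209700, with a median of -0.03, none called and 2 at an unadjusted p under 0.05. Only markers above the floor on at least 3 arrays were counted, so none could be at the floor on all 9. No marker of these 4 lists was at the floor on all 3 arrays of a group. Hepatocyte zones also bear on P450 genes, many of which are expressed near the central vein. Of 6 markers of that zone 1 was called in Burn-CLP against Sham-Sham, Slc1a2, which rose by 2.50 ± 0.44 (adjusted p 0.0421). The median of the 6 was 0.32, and 2 lay below 0. The groups did not overlap for 3 markers above 0 and for the 2 below it, against 21.5% of all probe sets. The unadjusted p was under 0.05 for 2 above 0 and 1 below it. Of 8 markers of the portal zone 1 was called, Sds, which rose by 2.78 ± 0.47 (adjusted p 0.0372). Their median was 0.37, with 1 below 0. The groups did not overlap for 5 of the 8, and 4 had an unadjusted p under 0.05, all of these higher in Burn-CLP.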

How the data were processed

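The authors deposited linear intensities, 1 for each probe set of an array. The steps from scan to value are not given in the sources used here. In the deposited values each array had a mean of 500.14 to 500.17 after trimming 2% at each end. The arrays were quantile normalized, floored at the 20th percentile (64.3) and log2 transformed. Probe sets above the floor on at least 3 of 9 arrays were tested, without 57 control probe sets. limma 3.58.1 in R 4.3.3 (lmFit, eBayes) fitted all 9 arrays with a mean per group, and Benjamini-Hochberg adjusted p-values under 0.05 over 13535 probe sets were called. With 3 arrays against 3, an exact two-sided permutation test cannot give a p under 0.1, so none was run. The steps were tested on simulated data. The number of arrays, 3 in a group, limits the precision.

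Members and gene lists were chosen with earlier results of these data known. Named are called members, the 10 with the smallest p in each comparison, the brightest of each subfamily, the 5 largest rises and falls without overlap, members with a group wholly at the floor, and other probe sets of these genes, and of each list the 2 smallest p. Cyp2a3, Cyp2b12, Cyp2c6v1, Cyp2c13, Cyp2c22, Cyp2c23, Cyp3a23-3a1, Cyp4a1, Cyp4f4 and Cyp4f5 were added after their values were seen, to account for every member. Symbols came from the platform annotation and matched RefSeq by Entrez identifier for all 43 members. Probes may cross-hybridize between these similar genes, which was not tested. No 2 arrays held identical values. Upstream sequences are from RefSeq (GRCr8), and no protein sequences were used here. Beside the marker lists in the report, 4 more (endothelium, bile duct, lymphocyte and blood) were measured, with 0 genes called in limma in any comparison and 1, 1, 0 and 2 at an unadjusted p under 0.05 in Burn-CLP against Sham-Sham.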

Additional observations from a re-analysis of the deposited data

How the results depend on the processing

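The alternatives were run on 36 differences of members, those named for a call, a small p, groups that do not overlap or a group at the floor. All 601 alternative values of these kept their sign, and 583 kept their side of the threshold. The kept sign says little about stability, because these differences were chosen for their values in the same arrays. Where 2 groups do not overlap, leaving out an array can hardly change the sign. For Cyp4f17 the sign was fixed by the filter at the main floor. Members named for other reasons were not recomputed one by one. The 9 that lost a call were all Cyp2t1 in Burn-CLP against Sham-Sham, whose difference ran from -1.79 to -1.37 and whose adjusted p ran from 0.016 to 0.105. The 9 that gained one were Cyp2c11, Cyp3a9, Cyp4f1, Cyp4f6 and Cyp1a1 in the same comparison. In that comparison the count of members called, 1, became 0 with the floor at the 10th percentile, without a filter or with only the 2 groups fitted, 3 with the floor at the 30th percentile and 5 with an intensity trend in the variance, and ran from 0 to 3 with each array left out. In the other comparisons it stayed at 0 under every alternative.

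Over all probe sets, the count for Burn-CLP against Sham-Sham, 101, became 53 and 212 with those floors, 13 with 2 groups, 280 with the trend, and 19 to 645 with an array left out. For Sham-CLP against Sham-Sham, 8 became 4 in the deposited scaling and ran from 4 to 347. For Burn-CLP against Sham-CLP, 2 became 1 in the deposited scaling, 4 and 0 with the floors, 4 without a filter, 0 with 6 arrays required, 0 with 2 groups, 6 with the trend, and ran from 0 to 36. The cause was not tested.

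With the replicate number as a block the members called were 0, 1 and 0 in the order Sham-CLP and Burn-CLP against Sham-Sham and Burn-CLP against Sham-CLP, and over all probe sets 4, 59 and 0. The labels do not say whether the numbers pair the arrays. Deviations of same-numbered arrays correlated at -0.0261 to 0.0806, and 0 of 9 pairs were over 0.1. Those of differently numbered arrays correlated at -0.0725 to 0.0366. Correlations this small cannot decide whether the arrays are paired.

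Of 330 alternative medians of families and subfamilies, 15 moved by more than the spread between replicates. Dim members limit the precision where arrays reach the floor, since a difference is then understated.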

Other observations

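A further 3 probe sets carried several P450 symbols each and were not counted as members, so their signal cannot be assigned to a gene. The probe set of Cyp2a2 and Cyp2a1 ran over 7893 to 9421, 7230 to 10085 and 7780 to 9376 in the order Sham-Sham, Sham-CLP and Burn-CLP, which overlapped, and Burn-CLP minus Sham-Sham was -0.06 ± 0.18 in limma. The probe set of Cyp2d5 and Cyp2d1 in the same order ran over 10338 to 10711, 10676 to 11155 and 7722 to 10852, and the difference was -0.21 ± 0.17 (adjusted p 0.508). The probe set of Cyp2b2 and Cyp2b1, the forms best known for induction by phenobarbital, ran over 5085 to 7356, 2771 to 7979 and 2690 to 10029. Its injured arrays spread on both sides of the Sham-Sham arrays, and the differences from Sham-Sham were -0.14 ± 0.51 in Sham-CLP and -0.17 ± 0.51 in Burn-CLP, with a 95% interval from -1.31 to 0.97 in the latter.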
